A study of Mus musculus with 4 samples.

Results

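The genes described here are the tumour necrosis factor (TNF) superfamily ligands, their receptors and the TRAF adaptors of the mouse. Members were all protein-coding genes of the mm10 RefSeq annotation whose symbol begins with Tnfsf (ligands) or Tnfrsf (receptors), or is Traf followed by a number (adaptors). There were 39 members of 21887 protein-coding genes, of which 12 were ligands, 20 receptors and 7 adaptors. A peak was counted for a gene when its midpoint lay in the gene body or within 50 kb on either side.

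The study mapped binding of PLZF, the zinc finger transcription factor that natural killer T (NKT) cells need for their innate-like functions, in thymocytes of C57BL/6 mice. The library labelled NKT came from PLZF tg/BirA tg/Valpha14 tg mice and the library labelled Tg thy from PLZF tg/BirA tg mice, so both carried a PLZF transgene and a BirA transgene. BirA is a bacterial enzyme that attaches biotin, and protein-DNA complexes were taken up on streptavidin beads. Valpha14 is the alpha chain of the T cell receptor that invariant NKT cells carry. The labels name no promoter for any of these transgenes, give no age and call the cells of both libraries thymocytes, so whether NKT cells were sorted is not known. Streptavidin signal from animals lacking transgenic PLZF was not analysed here, so bound and nonspecific sites cannot be told apart.

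Each group had 1 library, and the peak list of each was used. The NKT list held 4246 peaks with scores of 50.02 to 3104 and a median of 73.8, and the Tg thy list held 5198 peaks with scores of 50.03 to 3133 and a median of 110.8. A score is the value the authors deposited with a peak, and read depth is unknown. Scores of the 2 lists are set side by side as descriptions of each library and show no change, and with no replicates no test was possible. In bulk chromatin, fewer cells with a bound site and weaker binding per cell cannot be told apart. The T cell marker genes Cd3d, Cd3e and Cd3g, all on chromosome 9, had the same highest score, 504.9 in NKT and 1042.6 in Tg thy. They are therefore not counted at separate sites. All 10 T cell marker genes examined, among them Cd3e, Cd4 and Cd8a, had a peak by the same rule in both lists. So had 2 and 3 of 5 B cell, 1 and 2 of 4 myeloid and 1 and 0 of 4 thymic stroma marker genes in the NKT and Tg thy lists, where 26.3% and 30.3% of all protein-coding genes had one, but a peak is not expression and these counts name no cell type.

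TNF superfamily ligands are mostly trimers on the cell surface, and each engages 1 or a few receptors. Receptors with a death domain can trigger apoptosis, and most others recruit TRAF proteins, which pass the signal on to NF-kB and MAP kinases. In the thymus, RANKL and lymphotoxin from T lineage cells direct the maturation of medullary epithelium, and receptors such as CD30, OX40, GITR and 4-1BB act as costimulators of T cells.

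Peaks met the promoters of few members, and 3 of those promoters are printed because a peak covered at least 115 of the 250 bases before the start in each list that had one there. Promoter sequences (250 bases before and 50 after a transcript start, RefSeq, GRCm38.p6) were matched for 32 of the 39 members. A peak overlapped the promoter of 3 of these 32 in the NKT list (Traf1, Tnfsf14 and Tnfrsf8) and of 3 in the Tg thy list (Traf1, Tnfsf14 and Tnfsf10, whose peak reached only 4 bases before the start). Of the 17492 protein-coding genes with such a sequence, 2.42% and 3.28% had a promoter that overlapped an NKT and a Tg thy peak. The 250 bases before the start are given 5′ to 3′ on the strand of the gene, with the letters TGTGGT (a core of RUNX sites), TGACTCA (AP-1), CACGTG (an E-box) and GGGCGG (a GC box), on either strand, in capitals (TGACTCA reads TGAGTCA on the other strand):

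Traf1 (chr2:34961773-34962022, minus strand): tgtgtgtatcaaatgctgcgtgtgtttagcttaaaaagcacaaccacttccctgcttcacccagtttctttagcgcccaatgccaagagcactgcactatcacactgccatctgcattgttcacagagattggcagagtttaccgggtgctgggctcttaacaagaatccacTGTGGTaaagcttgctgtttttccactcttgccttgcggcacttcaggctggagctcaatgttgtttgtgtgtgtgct

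Tnfsf14 (chr17:57194182-57194431, minus strand): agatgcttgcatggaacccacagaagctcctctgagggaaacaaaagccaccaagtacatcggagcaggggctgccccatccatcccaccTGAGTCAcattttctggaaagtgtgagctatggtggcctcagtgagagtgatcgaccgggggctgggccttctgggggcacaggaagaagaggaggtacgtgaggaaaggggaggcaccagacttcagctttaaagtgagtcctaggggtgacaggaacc

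Tnfrsf8 (chr4:145315165-145315414, minus strand): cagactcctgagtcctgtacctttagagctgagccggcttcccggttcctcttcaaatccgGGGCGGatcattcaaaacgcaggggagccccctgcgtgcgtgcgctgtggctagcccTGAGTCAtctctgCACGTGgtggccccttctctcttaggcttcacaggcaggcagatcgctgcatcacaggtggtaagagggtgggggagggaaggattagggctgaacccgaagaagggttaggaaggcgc

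In the Traf1 promoter the NKT peak covered 165 and the Tg thy peak all 250 of the printed bases, and TGTGGT began 78 bases before the start. The near edge of the NKT peak was 76 bases before the start, so that peak covered only part of TGTGGT. At Tnfsf14 the NKT peak covered 115 and the Tg thy peak all 250 bases, with the AP-1 letters 160 bases before the start. At Tnfrsf8 only the NKT list had a peak, which covered 207 of the printed bases, with the GC box 189, the AP-1 letters 132 and the E-box 119 bases before the start. Over the 32 members, 1 promoter each, TGACTCA was present in 3 (9.38%: Tnfrsf8, Tnfsf13 and Tnfsf14), against 4.0% of all 17492 promoters. TGTGGT was present in 6 (18.8%) against 12.5%, CACGTG in 2 (6.25%) against 6.64%, and GGGCGG in 15 (46.9%) against 42.7%. The shorter letters GGAA (a core of ETS sites) and CANNTG (any E-box, which includes CACGTG) were present in 32 and 21 of the members, against 93.1% and 62.7% of all promoters. Among all promoters that overlapped a peak, 2.27% in the NKT list and 2.46% in the Tg thy list held TGACTCA, and 11.4% and 15.3% held TGTGGT. Such matches are letters in a window and not shown to be binding sites.

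Over the whole family, 16 of the 39 members (41.0%) had a peak in the NKT list and 21 (53.8%) in the Tg thy list, beside 26.3% and 30.3% of all protein-coding genes. Both lists held a peak for 15 members (38.5%, beside 20.6% of all genes). A peak in the NKT list alone was found for 1 member, Tnfrsf9, beside 5.75% of all genes. In the Tg thy list alone it was found for 6 (Tnfsf9, Tnfsf10, Tnfsf12, Tnfsf13, Tnfsfm13 and Tnfrsf4), beside 9.7% of all genes. Of these 6, Tnfsf12, Tnfsf13 and Tnfsfm13 shared 1 peak of score 54.9, and the peak of Tnfrsf4 was also counted for Tnfrsf18. The median gene length was 20.2 kb for members and 17.2 kb for all genes. Per length of merged window, members held 5.835 NKT peaks and 7.235 Tg thy peaks per Mb, where all protein-coding genes held 2.194 and 2.755 per Mb.

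**Figure D1:**
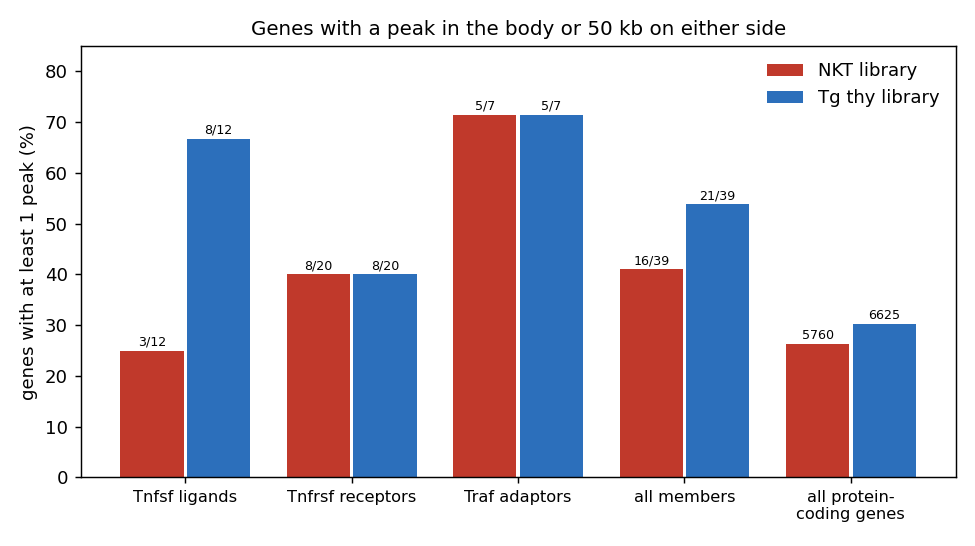
Share of genes (%) with at least 1 peak in the body or 50 kb on either side, for ligands, receptors, adaptors, all 39 members and all 21887 protein-coding genes, with the NKT library in red left of the Tg thy library in blue. Numbers above the bars are genes with a peak; there are no error bars because each bar is 1 library. Adaptors stand at 71.4% in both libraries, and ligands at 25.0% in NKT and 66.7% in Tg thy, where 3 of the 8 ligands share 1 peak.

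By class, with 50 kb on either side, the adaptors most often had a peak. They had one at 5 of 7 in both the NKT and the Tg thy list (71.4% each), the same 5 genes. Among these, Traf4 had no overlapping peaks, and the peaks of Traf6 and Traf7 lay nearer to other genes. Among receptors, 8 of 20 had a peak in each list (40.0%), and 7 were common to both. Ligands had a peak at 3 of 12 in the NKT list (25.0%) and at 8 of 12 in the Tg thy list (66.7%), and all 3 were among the 8. Of the 5 further ligands of the Tg thy list, 3 (Tnfsf12, Tnfsf13 and the read-through gene Tnfsfm13, which spans both) shared 1 weak peak. Peaks per Mb of merged window were 4.416, 5.561 and 8.042 for ligands, receptors and adaptors in the NKT list and 6.183, 6.024 and 11.06 in the Tg thy list. With 100 kb on either side, the NKT list had a peak at 4 ligands, 14 receptors and 6 adaptors. The Tg thy list had one at 8, 11 and 5. That was 24 members (61.5%) in each list, beside 37.2% and 41.7% of all protein-coding genes in the NKT and Tg thy lists. The classes are small and the differences between them were not tested.

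The members held 25 distinct peaks of the NKT list and 31 of the Tg thy list. Of these, 18 in each list overlapped one in the other list by 1 bp or more, which is 72.0% of the NKT and 58.1% of the Tg thy peaks at members. Over the whole NKT and Tg thy lists 60.7% and 45.7% did. At members the shared peaks had median scores of 97.5 in the NKT list and 281.1 in the Tg thy list, and the unshared ones 55.9 and 77.0. Such medians are not given here for the whole lists, so this gap is not shown to be particular to members. Peaks among the top 10% of their list numbered 4 of 25 in the NKT list (16.0%) and 7 of 31 in the Tg thy list (22.6%). For peaks counted for all protein-coding genes the shares were 9.94% and 9.66%. Across the 18 overlapping pairs the scores had a Spearman rho of 0.79, a description across peaks that share their 2 libraries. In 17 of the 18 pairs the Tg thy score was the higher value, but the median of the whole Tg thy list was also higher. By rank within its own list, the NKT peak stood nearer the top in 6 pairs and the Tg thy peak in 12. The ranks come from lists of different lengths and show no change. In all 18 pairs the Tg thy peak was the wider one, but peaks of the whole Tg thy list were also wider. Median widths were 387 bp over the Tg thy list and 224 bp over the NKT list.

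**Figure D2:**
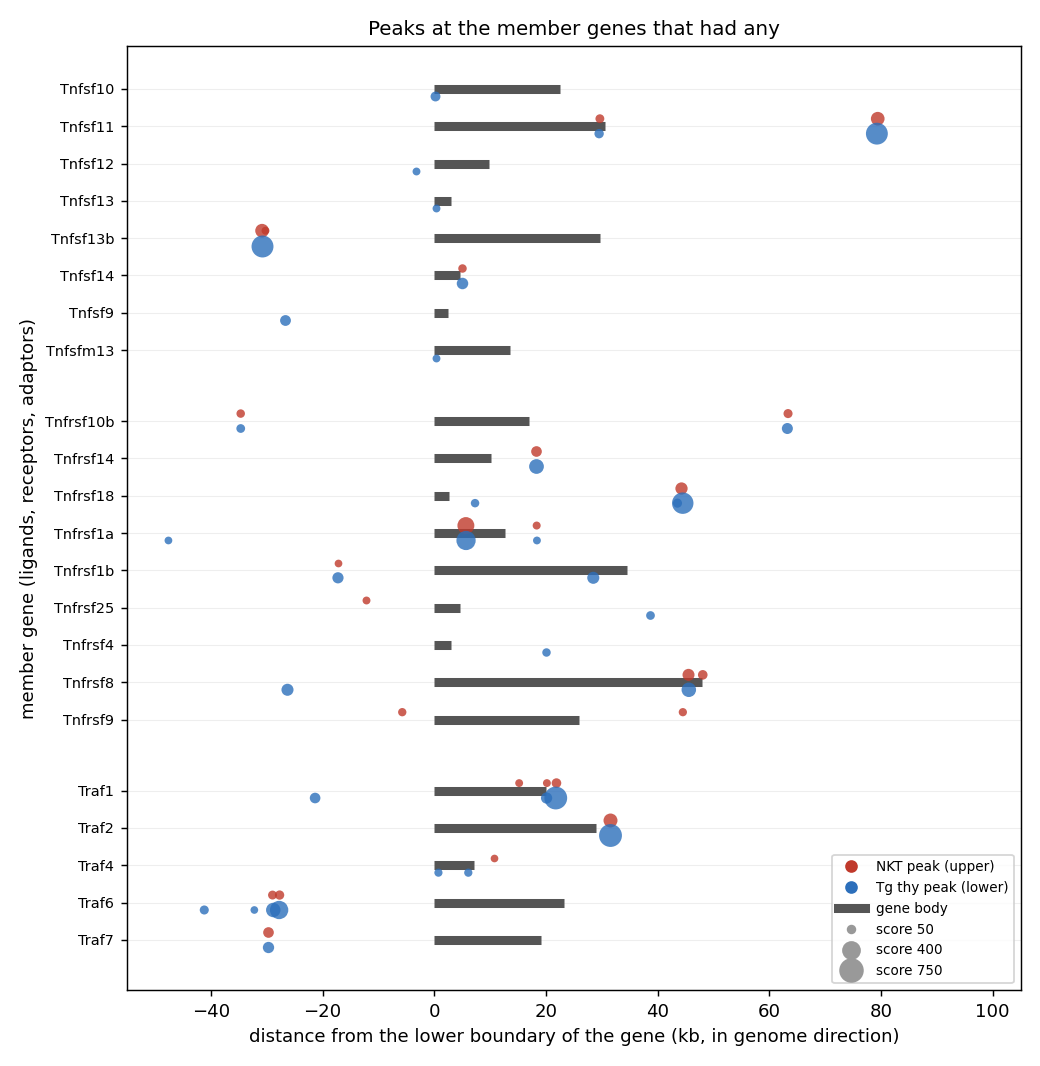
Midpoints of all peaks counted for the 22 members that had any, as distance in kb from the lower boundary of the gene in genome direction, with the gene body as a grey bar. Red points above each line are NKT peaks, blue points below it Tg thy peaks, and the area of a point grows with the deposited score. Shared peaks stand one above the other, as at Tnfrsf1a inside the gene and at Tnfsf11 48.8 kb outside it.

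Among the ligands, Tnfsf11 had the highest NKT score. It encodes RANKL, which binds RANK on medullary epithelial cells and osteoclast precursors. A site 48.8 kb upstream of the gene had a score of 247.0 in the NKT list (chr14:78356577-78357177, top 8.53% of the list) and of 694.6 in the Tg thy list (chr14:78356179-78357268, top 2.42%). No other protein-coding gene was closer to it. A second, weaker site lay inside Tnfsf11, 0.928 kb past the start for the NKT peak and 1.066 kb past it for the Tg thy peak, with scores of 81.1 and 95.4.

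Tnfsf13b, which encodes the B cell survival factor BAFF, had an almost equal pair of scores. Its shared peak scored 246.8 in the NKT list (chr8:9975124-9975674) and 698.7 in the Tg thy list (chr8:9975023-9975880). It lay 30.8 kb outside Tnfsf13b and inside Lig4, the DNA ligase gene of V(D)J recombination. An unshared NKT peak of score 55.6 lay beside it, also inside Lig4. Tnfsf14, which encodes LIGHT, a ligand of the receptors HVEM and lymphotoxin beta receptor, had a shared peak close to its start site. Its scores were 70.7 in the NKT list (chr17:57194317-57194585, midpoint 270 bp upstream) and 162.8 in the Tg thy list (chr17:57194124-57194686, 224 bp upstream).

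The remaining ligands with a peak had it in the Tg thy list alone. Tnfsf10, which encodes the death ligand TRAIL, had a peak of score 110.0 over the first bases of the gene (chr3:27317073-27317484), while the closest NKT peak was 122.4 kb away. Tnfsf9, which encodes the ligand of 4-1BB, had a peak that scored 139.7 (chr17:57078295-57078812), 26.7 kb from the gene and 0.024 kb from Dennd1c. The peak shared by Tnfsf13 (APRIL), Tnfsfm13 and Tnfsf12 (TWEAK) had a score of 54.9 (chr11:69682824-69683076), near the lowest of the list. It lay inside Tnfsf13 and Tnfsfm13 and 3.29 kb from Tnfsf12. Tnfsf4, Tnfsf8, Tnfsf15 and Tnfsf18, which encode the ligands of OX40, CD30, DR3 and GITR, had none, with the closest peaks of the 2 lists 165.4 to 442.0 kb away.

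Tnfrsf1a held the highest NKT score of the whole family. It encodes TNFR1, the death domain receptor for TNF. The peak inside the gene, 5.67 kb past its start, scored 399.8 in the NKT list (chr6:125355026-125355765, top 3.06%) and 528.8 in the Tg thy list (chr6:125355028-125355818, top 4.73%). Both peaks were of similar width here, 740 bp and 791 bp. A second site 5.59 kb outside the gene, inside Plekhg6, had the only pair in which the NKT score was the higher value, 58.5 against 54.6 in the Tg thy list. A further Tg thy peak of score 52.2 lay 47.6 kb upstream, closer to Ltbr, the lymphotoxin beta receptor gene.

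TNFR2, the other TNF receptor, is encoded by Tnfrsf1b, which had a different layout. Within the gene only the Tg thy list had a peak (chr4:145240608-145241101, score 183.3), 6.016 kb past the start. The site shared by both lists lay 17.3 kb outside, beside Vps13d, and scored 51.1 in the NKT list and 152.7 in the Tg thy list. The Tg thy peak within Tnfrsf1b was also counted for Tnfrsf8, 26.3 kb away.

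The costimulatory receptor gene Tnfrsf8, which encodes CD30, had a shared peak 2.49 kb past its start, with scores of 181.2 in the NKT list (chr4:145312461-145312888) and 282.6 in the Tg thy list (chr4:145312436-145313020). The NKT list alone had a second peak over the promoter printed above, with a score of 101.6 (chr4:145315079-145315371). Tnfrsf14, which encodes HVEM, had 1 shared peak outside the gene and nearest to it, at 8.05 kb in NKT and 8.11 kb in Tg thy, with scores of 134.7 in the NKT list (chr4:154936453-154936880) and 293.7 in the Tg thy list (chr4:154936397-154937054).

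For Tnfrsf18, which encodes GITR, the strongest site was far downstream. It scored 190.4 in the NKT list (chr4:156070286-156070661) and 665.3 in the Tg thy list (chr4:156070157-156071506), 41.6 and 41.9 kb from Tnfrsf18 and nearer to Ttll10. A weak Tg thy peak 4.74 kb from Tnfrsf18 (chr4:156033484-156033788, score 70.04) was also the only peak counted for its neighbour Tnfrsf4, which encodes OX40 and lay 17.0 kb away. The remaining Tg thy peak of Tnfrsf18 scored 88.5. Tnfrsf9, which encodes the costimulator 4-1BB, had 2 NKT peaks with scores of 66.4 and 64.6, at 5.72 and 18.6 kb, and the closest Tg thy peak was 375.1 kb away. Both scores were below the NKT list median of 73.8, and the peak of score 66.4 was nearer to Park7, at 4.51 kb. Tnfrsf25, which encodes the death domain receptor DR3, had 1 unshared peak in each list, at different places, with scores of 55.9 in the NKT list and 77.0 in the Tg thy list. Both lay closer to or inside other genes, Plekhg5 for the NKT peak and Espn for the Tg thy peak. Tnfrsf10b, the TRAIL receptor gene, had 2 shared sites, 34.7 and 46.4 kb away, with scores of 70.8 and 86.1 in the NKT list and 78.0 and 146.6 in the Tg thy list. Each was nearer to another gene, Chmp7 or Rhobtb2.

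**Figure D3:**
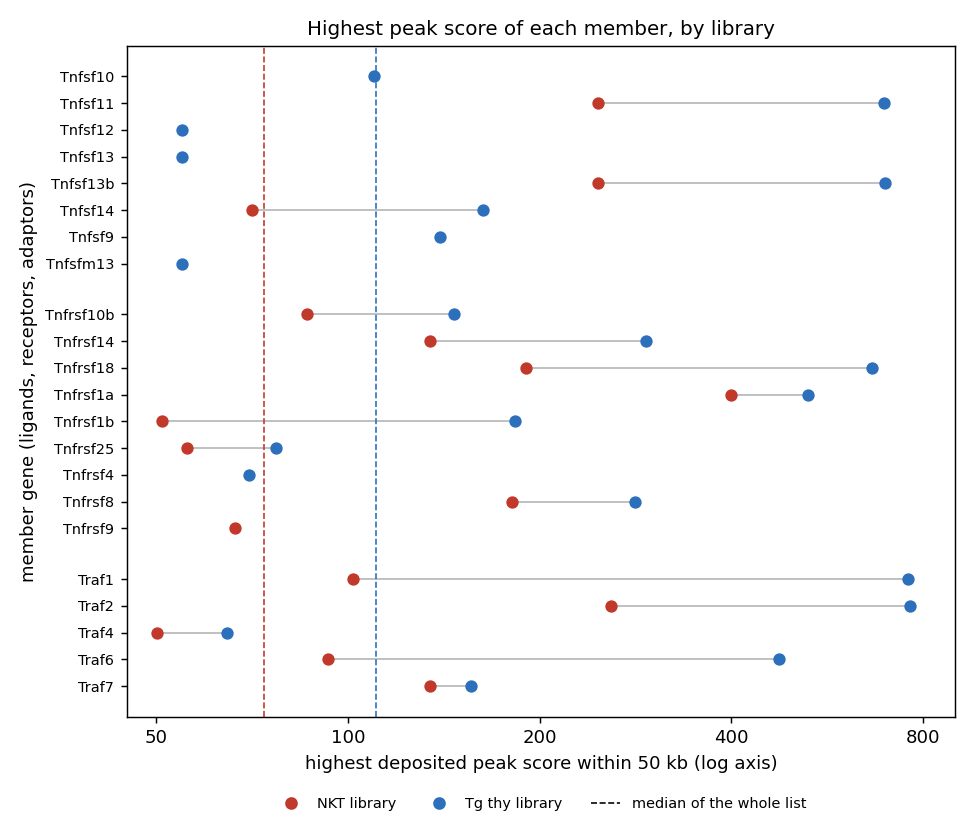
Highest deposited score among the peaks of each member with any peak (log axis), with NKT in red and Tg thy in blue, joined by a line where both lists had one. Dashed lines mark the median score of each whole list, 73.8 for NKT and 110.8 for Tg thy. Tnfrsf1a has the highest NKT score (399.8), and Traf2 and Traf1 the highest Tg thy scores (762.3 and 759.2).

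All 7 receptor genes on chromosome 4 had a peak in at least 1 list, a grouping chosen after the values were seen. They are Tnfrsf1b, Tnfrsf8, Tnfrsf9, Tnfrsf25, Tnfrsf14, Tnfrsf4 and Tnfrsf18, and they lie within 10.82 Mb (chr4:145212368-156028894). In each of the NKT and Tg thy lists 6 of the 7 had one, and 5 had one in both. Of the 13 receptor genes on other chromosomes, 2 had a peak in each list, Tnfrsf1a and Tnfrsf10b in both cases. The 152 other protein-coding genes in this stretch had a peak in 41.4% of cases in the NKT list and 34.2% in the Tg thy list. For these genes the share with a peak in at least 1 list was 56.6%, and in both lists 19.1%. Merged windows of the 7 receptors held 12.14 peaks per Mb in each list, and those of the 152 other genes 2.694 and 2.919 per Mb in the NKT and Tg thy lists. These windows overlap, so some peaks were counted on both sides. Examples are the peaks of Tnfrsf25, which lay inside Plekhg5 or nearest to Espn. Because the grouping followed from the values, it was not tested.

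Receptors without any peak were 11 of 20. Tnfrsf13b, Tnfrsf13c and Tnfrsf17 encode TACI, BAFF receptor and BCMA, the receptors of B lineage cells for BAFF and APRIL. Tnfrsf11a and Tnfrsf11b encode RANK and its decoy osteoprotegerin. The others were Tnfrsf12a, Tnfrsf19, Tnfrsf21, Tnfrsf22, Tnfrsf23 and Tnfrsf26. At the edge of the 50 kb window, the distal Tnfsf11 peaks were just inside at 48.8 kb in the NKT and 48.7 kb in the Tg thy list. Just outside were Tnfrsf13c, whose closest peaks were 54.8 and 55.3 kb away, Tnfrsf4 in the NKT list (53.9 kb) and Tnfrsf12a in the Tg thy list (54.9 kb).

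The adaptor genes Traf1 and Traf2 had the highest Tg thy scores of the family, and both sites lay close upstream. TRAF2 is the adaptor that TNFR1 and TNFR2 complexes use to recruit ubiquitin ligases, and TRAF1 is a TRAF protein without a RING domain that NF-kB induces and that pairs with TRAF2. At Traf2 the site was 2.55 kb upstream for the NKT peak (chr2:25549174-25549800, score 259.2, top 7.58%) and 2.44 kb upstream for the Tg thy peak (chr2:25548821-25549932, score 762.3, top 1.96%). At Traf1 the main site lay 1.87 kb upstream for the NKT peak (chr2:34963472-34963813, score 102.0, top 33.8%) and 1.745 kb upstream for the Tg thy peak (chr2:34962983-34964051, score 759.2, top 2.0%). Traf1 and Traf2 thus held almost equal scores in the Tg thy list and unequal ones in the NKT list. A second Traf1 site lay over the promoter printed above, with scores of 55.6 in the NKT list (chr2:34961848-34962012) and 154.0 in the Tg thy list (chr2:34961682-34962069). An unshared NKT peak inside Traf1 scored 55.1 (chr2:34956884-34957043), and an unshared Tg thy peak 21.3 kb away, nearer to Phf19, scored 133.4 (chr2:34920244-34920592).

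Traf6 and Traf7 had peaks only at a distance, and those lay at other genes. TRAF6 is the adaptor of Toll-like and interleukin-1 receptors as well as of RANK and CD40. Its 2 NKT peaks scored 82.3 (chr2:101649308-101649616) and 93.1 (chr2:101650623-101650831), and the Tg thy peaks that overlapped them 279.6 and 475.6. They lay 27.7 to 29.0 kb upstream of Traf6 and inside or within 1.195 kb of Rag1, the recombinase gene that thymocytes express. The 2 further Tg thy peaks of Traf6 had scores of 85.8 and 50.5 and also had Rag1 as the nearest gene. Traf7 had 1 shared peak inside Mlst8, 29.8 kb away, with scores of 134.4 in the NKT list (chr17:24478916-24479180) and 156.3 in the Tg thy list (chr17:24478715-24479312).

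Traf4 had weak and unshared peaks. The NKT peak scored 50.1 and lay 3.62 kb upstream, inside Nek8 (chr11:78169126-78169277), and the 2 Tg thy peaks inside Traf4 scored 62.4 (chr11:78159057-78159301) and 64.6 (chr11:78164392-78164663). Traf3, which restrains the noncanonical NF-kB pathway by promoting breakdown of its kinase NIK, and Traf5 had none, with closest NKT peaks 94.3 and 477.0 kb and closest Tg thy peaks 114.7 and 421.1 kb away.

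Close to the genes, fewer members had a peak in the NKT list than in the Tg thy list. A peak in the body or within 5 kb was found for 7 members in the NKT list (17.9%) and 13 in the Tg thy list (33.3%), beside 10.8% and 13.1% of all protein-coding genes. Among them were 2 and 6 ligands, 2 and 4 receptors and 3 and 3 adaptors in the NKT and Tg thy lists, and 3 of the 6 ligands shared the weak Tnfsf13 peak. In distinct peaks within 5 kb the lists held 10 and 13, beside 25 and 31 over the whole window. The members' share was above that of all genes in both libraries at each of the flanks tried, 0, 10, 50 and 100 kb. Of the peaks counted for members, 12 of 25 in the NKT list (48.0%) and 14 of 31 in the Tg thy list (45.2%) had a member as the nearest protein-coding gene, and the others were nearer to another gene.

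**Figure D4:**
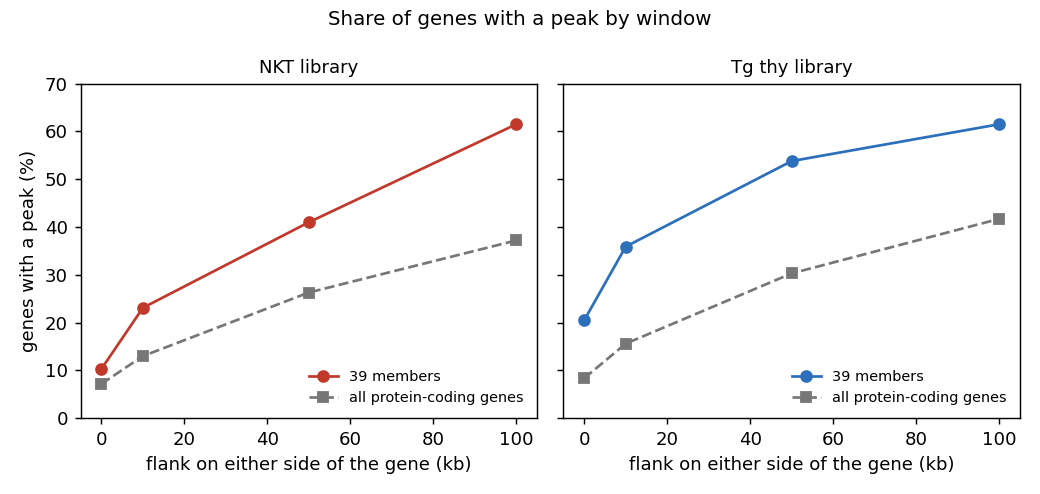
Share of genes (%) with a peak against the flank added to either side of the gene (kb), for the 39 members (solid line) and all protein-coding genes (dashed line), in the NKT library left and the Tg thy library right. With gene bodies alone the members stand at 10.3% and all genes at 7.18% in NKT, and at 20.5% and 8.37% in Tg thy.

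Family members with other symbols showed peaks as well. Of 7 ligand genes, 5 (71.4%) had a peak in both lists, beside 20.6% of all protein-coding genes. Ltb, Tnf and Lta lie side by side on chromosome 17 and encode lymphotoxin beta, TNF and lymphotoxin alpha. Each had 6 NKT and 8 Tg thy peaks, with the same highest scores of 169.7 and 116.0, so they are not counted at separate sites. The NKT peak of score 169.7 lay 0.256 kb from Ltb and 8.914 kb from Lta. The Tg thy peak of score 116.0 lay inside Lta, at a different place. Cd70 had the Tnfsf14 promoter peak at 44.7 kb (scores of 70.7 in NKT and 162.8 in Tg thy), and its partner receptor gene Cd27 had 8 and 7 peaks with highest scores of 267.3 and 432.0 in the NKT and Tg thy lists. Of the 8 receptor genes with other symbols, 4 had a peak in the NKT list (50%) and 3 in the Tg thy list (37.5%), beside 26.3% and 30.3% of all genes, so the Tg thy share was near that of all genes. The death receptor gene Fas had a highest score of 78.2 in NKT and 295.7 in Tg thy, 2.56 and 2.61 kb away, Ltbr shared the Tnfrsf1a peak, and Relt had one only among NKT peaks (57.2).

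Downstream of the receptors, 11 of 30 signalling genes had a peak in the NKT list (36.7%) and 16 in the Tg thy list (53.3%), 10 of them in both, beside 26.3% and 30.3% of all protein-coding genes. The highest NKT scores were those of Nfkbia, Tab1, Tnfaip3 and Map3k14. Nfkbia, which encodes the NF-kB inhibitor IkBa, had 5 peaks in each list with highest scores of 288.9 in NKT and 372.5 in Tg thy, at 24.3 and 24.4 kb. Tab1, an activator of the kinase TAK1, had 215.3 in NKT and 440.9 in Tg thy, both at 49.6 kb. Map3k14, which encodes NIK, had 149.9 and 185.9, both at 44.6 kb. Tnfaip3, the gene of the NF-kB inhibitor A20, had 165.1 in NKT and 772.4 in Tg thy, 47.1 and 47.2 kb away.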

How the data were processed

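Streptavidin ChIP-seq peak lists of 2 libraries, 1 per group, were analysed, and the 2 input libraries were not used here. Each list had no header, and column 5 was used as a score, deposited by the authors for every peak. Peak names begin with MACS, per the files themselves. Bowtie, HOMER and Picard, and the build mm10, are named in the notes of the submitters on processing. Software versions, pooling and the part played by the input are not given in the sources used.

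Coordinates are 1-based here. Gene spans came from a RefSeq table of GRCm38.p6, the assembly of mm10, kept to protein-coding genes of the nuclear chromosomes. Start sites, strands and promoters came from a RefSeq promoter table of the same build, which held 32 of 39 members. Peaks were shared when they overlapped by at least 1 bp. All values are counts or deposited scores, computed with Python 3.11.15, pandas 2.3.3 and NumPy 2.4.6, and window assignment was tested on simulated peaks. With 1 library per group, no p-value, interval or SD between libraries was computed. Motif shares used 1 promoter per gene.

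Every member is accounted for by name or in a count. Peak positions were given by rule for members with a peak in the body or within 5 kb and for the 4 highest scores of each class and list. Some peaks of these members, such as the Tg thy peaks of Traf6, are given by score or distance without coordinates. Of the other lists, up to 4 genes by NKT score were named. The members and lists were chosen with earlier results of these data known.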

Additional observations from a re-analysis of the deposited data

How the results depend on the processing

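Of 43 recomputed counts, 25 stayed within 1.5 times the reported value and 18 moved further. Among the 25 were NKT counts that a shorter Tg thy list could not change. Counts of shared peaks entered once for each list with equal values, so the 43 are not separate checks. With gene bodies alone, 4 members had a peak in the NKT list (10.3%), 8 in the Tg thy list (20.5%) and 3 in both, on 4 and 8 peaks. Of all protein-coding genes 7.18% and 8.37% had one in the NKT and Tg thy lists. With 10 kb on either side, 9 members (23.1%) had an NKT peak, beside 13.0% of all protein-coding genes. At that flank 8 members had a peak in both lists, on 13 NKT and 15 Tg thy peaks. Giving each peak to its nearest protein-coding gene within 50 kb left 8 members with an NKT peak, 11 with a Tg thy peak and 7 with both, on 12 and 14 peaks. No share of all genes is given here for the nearest-gene rule, so these counts stand without a comparison. The top 50% of each list by score left 14 NKT and 18 Tg thy peaks at members. That setting left 11 members (28.2%) with an NKT peak and 14 (35.9%) with a Tg thy peak. Of all protein-coding genes 15.8% and 18.2% had one in the NKT and Tg thy lists. Requiring 50% of both peaks to overlap left 9 shared peaks in each list. Smaller windows and shorter lists hold fewer peaks by construction. With the Tg thy list shortened to 4246 peaks by score, an alternative chosen after seeing the data, 18 members had a Tg thy peak and 15 a peak in both. No share of all genes is given for the shortened list. The same holds for the counts in both lists with gene bodies alone and with 10 kb on either side. No paired analysis was possible because each group had 1 library. Depth is unknown, so a missing peak in 1 list is not shown to be absence of binding.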
